A study of Mus musculus with 10 samples.

Results

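Immunoglobulin constant regions and J chain were followed in lamina propria macrophages of the mouse small intestine 24 h after experimental stroke. The 10 genes were chosen by name: the heavy-chain constant genes Igha, Ighm, Ighd, Ighg1, Ighg2b, Ighg2c and Ighg3, the light-chain constant genes Igkc and Iglc1, and Jchain. All 10 were among the 17279 genes listed, and all 10 passed the filter on low counts. Mice labelled C57BL6/J underwent sham surgery (5 libraries) or permanent middle cerebral artery occlusion (pMCAO, 5 libraries), in which an artery of the brain stays blocked. After 24 h the mucosal layer was peeled from the whole small intestine and CX3CR1-GFP+ cells were collected by flow sorting. GFP here marks cells with the chemokine receptor CX3CR1, and the reporter allele is not named in the genotype label of either group. Replicate 1 of each group was a pool by its library name. The labels call the libraries biological replicates. Cells, sex and age per library were not given.

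Antibodies are built from a heavy chain, whose constant gene sets the isotype, and a kappa or lambda light chain. In the gut, plasma cells of the lamina propria secrete mainly IgA, and in IgA and IgM the small J chain protein joins the antibody units into polymers that the epithelial receptor pIgR carries into the lumen. Naive B cells make IgM and IgD from one transcription unit, and class switching exchanges these for IgG, IgE or IgA. Macrophages do not rearrange immunoglobulin genes and meet antibodies through Fc receptors.

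The link to J chain is visible in the genes themselves. The last 57 coding bases of the secreted Igha and Ighm transcripts are shown beside those of Ighg2b, the leading IgG gene in most of these libraries, with the cysteine codon before the final residue in capitals. That cysteine forms the disulfide bridge to J chain. The secreted Ighg2b transcript ends with no cysteine codon at this place. The windows lie on the minus strand of chromosome 12 in GRCm38, at chr12:113258768-113258824 for Igha, chr12:113420867-113420923 for Ighm and chr12:113306389-113306445 for Ighg2b, and are given 5′ to 3′ from the GENCODE M21 transcripts.
Igha: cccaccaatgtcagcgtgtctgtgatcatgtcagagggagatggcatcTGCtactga
Ighm: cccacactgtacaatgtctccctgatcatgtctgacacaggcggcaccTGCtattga
Ighg2b: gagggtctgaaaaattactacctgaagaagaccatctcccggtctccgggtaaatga

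Whether reads can separate the 4 IgG genes matters for the isotype shares. Aligned from the stop codon, the last 300 coding bases of the secreted forms were 66.3% identical between the least alike pair, Ighg2c and Ighg3, and 76.0% identical between the most alike pair, Ighg2b and Ighg2c. The 60-base window with the most differences is shown, with the 36 positions at which the 4 genes do not all share a base in capitals. It lies at chr12:113329033-113329092 for Ighg1, chr12:113306446-113306505 for Ighg2b, chr12:113287446-113287505 for Ighg2c and chr12:113359722-113359781 for Ighg3, all on the minus strand of GRCm38. Every 100-base window of the annotated transcripts of each of the 10 genes occurred in the annotated transcripts of no other gene.
Ighg1: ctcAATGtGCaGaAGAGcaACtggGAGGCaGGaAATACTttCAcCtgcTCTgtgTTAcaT
Ighg2b: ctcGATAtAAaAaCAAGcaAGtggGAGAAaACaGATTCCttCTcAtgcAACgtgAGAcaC
Ighg2c: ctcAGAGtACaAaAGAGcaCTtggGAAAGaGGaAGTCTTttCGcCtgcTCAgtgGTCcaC
Ighg3: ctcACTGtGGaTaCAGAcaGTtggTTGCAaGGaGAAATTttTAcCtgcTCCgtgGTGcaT

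Library depth ranged from 18894151 to 60665972 counts in the sham group and from 6430643 to 28672285 in the pMCAO group. Levels are given as CPM, each gene's count scaled to a common total over the listed genes. Markers of macrophages were abundant in every library: the receptor Csf1r lay between 690 and 1753 CPM, and the 12 macrophage genes summed to between 10794 and 19515 CPM. Sham replicate 5 and pMCAO replicate 4 held Xist at 2237 and 4686 CPM, against 1.27 to 4.88 CPM in the other 8 libraries, and are therefore also left out together below.

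The 10 genes took a large and uneven part of the libraries. Their summed counts were 4.27%, 13.9%, 5.36%, 0.506% and 3.76% of all counts in sham replicates 1 to 5 and 5.29%, 16.1%, 0.823%, 0.752% and 4.50% in pMCAO replicates 1 to 5. The means were 5.56% ± 5.00 in sham and 5.49% ± 6.28 in pMCAO libraries (SD, n = 5 each), and no test was made on the sum. Both groups thus held one library above 10% and at least one below 1%, and the spread within a group was about as large as the mean. With the 2 Xist libraries left out, the pMCAO mean was 0.669 percentage points above the sham mean, whereas over all libraries the difference of pMCAO minus sham was -0.0662 points. In bulk libraries, fewer cells of a type and less RNA per cell cannot be told apart.

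Igha, the IgA gene on chromosome 12, was the leading heavy-chain gene in every library, per exon length as well as in counts. It reached 19255, 64584, 24719, 2188 and 16902 CPM in sham replicates 1 to 5. After pMCAO it stood at 22414, 77526, 3719, 3233 and 19928 CPM. Replicate 2 was the highest library of each group and the lowest libraries were sham replicate 4 and pMCAO replicates 3 and 4, so the groups overlapped over nearly the whole 35.4-fold range. The log2 fold change of pMCAO over sham was -0.01 ± 0.91 (SE, edgeR quasi-likelihood test, FDR = 0.999). Without sham replicate 2 it was 0.79, and without pMCAO replicate 2 it was -1.19.

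Its partner Jchain, on chromosome 5, was high and low in the same libraries. Sham libraries held 5466, 22117, 8037, 621 and 4296 CPM and pMCAO libraries 8493, 24856, 918, 1326 and 7230 CPM. The log2 fold change was 0.06 ± 0.93 (edgeR, FDR = 0.999), with -1.01 without pMCAO replicate 2 and 0.98 without sham replicate 2.

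Igkc, the single kappa constant gene on chromosome 6, was 14714, 45556, 18021, 1810 and 12362 CPM in sham replicates 1 to 5. The pMCAO libraries gave 17273, 52649, 3201, 1732 and 14541 CPM. Again the same 3 libraries were low in a 30.4-fold range, and the log2 fold change was -0.05 ± 0.89 (edgeR, FDR = 0.999), with -1.14 without pMCAO replicate 2 and 0.71 without sham replicate 2. The lambda constant gene Iglc1, on chromosome 16, spanned 42.9 to 3693 CPM in sham and 17.9 to 3508 CPM in pMCAO libraries, a 207-fold range over all 10, with a log2 fold change of 0.01 ± 1.05.

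Ighm, which encodes the heavy chain of IgM on B cells and in early plasma cells, was less uneven than Igha. It stood at 906, 1364, 880, 342 and 1336 CPM in sham libraries and at 497, 2066, 289, 605 and 1167 CPM in pMCAO libraries. Its range over the 10 libraries was 7.15-fold, and its log2 fold change was -0.03 ± 0.49 (edgeR, FDR = 0.999). Ighd, made with IgM by naive B cells, spanned 26.2 to 204 CPM in sham and 17.1 to 212 CPM in pMCAO libraries, with replicate 5 the highest of each group, and its log2 fold change was -0.25 ± 0.58, or -1.10 without pMCAO replicate 5.

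The IgG genes were scarce and uneven. Ighg2b, the most abundant of them, reached 372, 970, 588, 23.8 and 662 CPM in sham libraries and 560, 341, 71.1, 131 and 121 CPM in pMCAO libraries. The group means were 523 ± 352 and 245 ± 204 CPM (SD, n = 5 each), the groups overlapped, and the log2 fold change of -1.09 ± 0.73 did not pass (edgeR, FDR = 0.922).

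Ighg2c, which C57BL/6 mice carry in place of Ighg2a, was at 3.98, 41.5, 11.5, 0.0529 and 4.76 CPM in sham libraries. The pMCAO libraries held 7.31, 282, 0.531, 0 and 148 CPM. Its high values came from pMCAO replicates 2 and 5, whereas pMCAO replicates 3 and 4 were among the lowest libraries together with sham replicate 4, which held 1 count. The 0 of pMCAO replicate 4 allows up to 0.259 CPM (3 counts, counting error only). The log2 fold change was 2.78 ± 1.61 and did not pass (edgeR, FDR = 0.922), and without pMCAO replicate 2 it was 1.43, without sham replicate 2 it was 4.19.

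Ighg1 was highest in replicate 5 of both groups, at 65.5 and 92.0 CPM, and otherwise between 0 and 20.1 CPM, with a log2 fold change of 0.77 ± 1.22. Without pMCAO replicate 5 that value was -0.75, and without the 2 Xist libraries it was 2.62. The 0 of Ighg1 in pMCAO replicate 3 allows up to 0.265 CPM. Ighg3 spanned 3.70 to 193 CPM in sham and 0.177 to 140 CPM in pMCAO libraries, with 2 counts in pMCAO replicate 3 and 6 counts in pMCAO replicate 4. Its log2 fold change was -0.73 ± 1.24, and without sham replicate 2 it was -0.14.

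**Figure D1:**
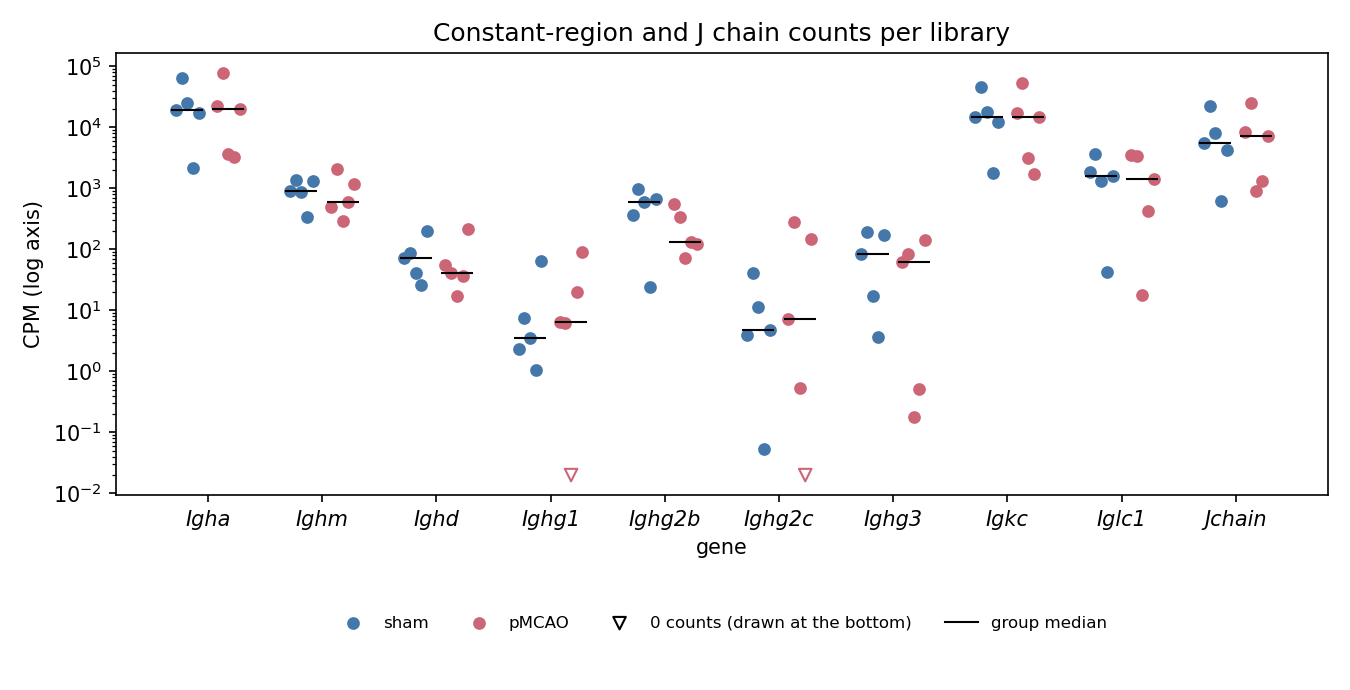
CPM on a log axis for each of the 10 genes, with 1 point per library, sham in blue and pMCAO in red, and lines for group medians. Open triangles mark 0 counts and are drawn at the bottom (Ighg1 in pMCAO replicate 3 and Ighg2c in pMCAO replicate 4), and the groups overlap for every gene.

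None of the 10 genes was called between pMCAO and sham at an FDR of at most 0.05 (edgeR), where 0.0% of the 16949 genes tested were called. At an unadjusted p under 0.05 there were 0 of the 10, against 4.71% of all genes, and the groups did not overlap for 0 of the 10, against 0.938% of all genes. The DESeq2 Wald test, limma-voom and limma-voom with quality weights likewise gave 0 calls and 0 unadjusted p-values under 0.05 among the 10. At that unadjusted limit 1 gene passed in each of 4 other alternatives, with FDR of at least 0.64: Ighg3 with the replicate number as a block, Ighg2c without sham replicate 2, Ighg2b without sham replicate 4 and Ighd without pMCAO replicate 5. Of the 10 log2 fold changes 4 were above 0 and 6 below, with a median of -0.02, beside -0.00592 over all genes tested. Standard errors ran from 0.49 for Ighm to 1.61 for Ighg2c, and for 9 of the 10 genes 2 standard errors exceeded a log2 change of 1, a doubling. The pooled SD of log2 CPM within groups was 1.83 for Igha and 4.19 for Ighg2c, against a median of 0.575 over all genes and 0.477 for Csf1r.

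**Figure D2:**
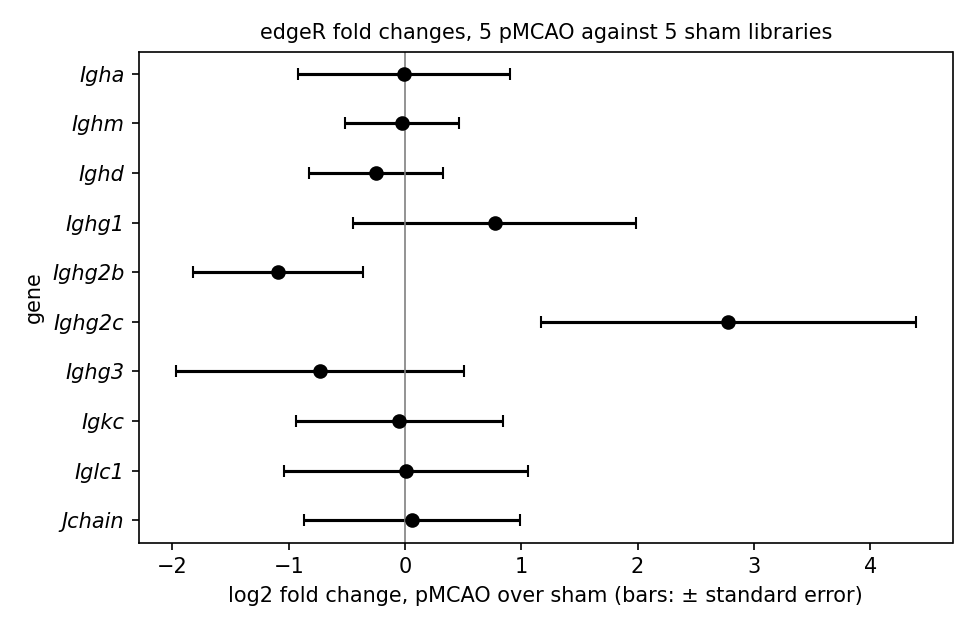
Log2 fold change of pMCAO over sham from edgeR for each gene, with bars of 1 standard error. Values run from -1.09 for Ighg2b to 2.78 for Ighg2c, and no gene passed the test.

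To compare the genes with each other, CPM was divided by the length of the annotated exons in kilobases. On this scale the mean level was highest for Igkc (34184 CPM per kb), which led in all 10 libraries, then Igha (9538 CPM per kb), which was next in all 10. Iglc1 (3798) and Jchain (3312) came after them and did not differ in order beyond their spread, since Iglc1 was the higher in 5 of 10 libraries. Ighm (501 CPM per kb) lay under Jchain in all 10 libraries and over Ighg2b (143 CPM per kb) in all 10. Ighg2b and the genes with lower means, Ighd (41.7), Ighg2c (37.7), Ighg3 (30.2) and Ighg1 (7.89 CPM per kb), changed places from library to library. Ighg2b was above Ighd in 8 of 10 libraries, and Ighg2c was above Ighg3 in 4 of 10. The exon lengths include membrane forms, so levels of a gene read mainly as its short secreted form are understated.

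Shares within a library do not depend on depth or on scaling between libraries. Igha made up 93.0%, 96.0%, 94.1%, 84.6% and 87.4% of the counts on the 7 heavy-chain genes in sham replicates 1 to 5. The pMCAO replicates held 95%, 96.5%, 90.8%, 80.3% and 91.4%. Even the lowest IgA share, in pMCAO replicate 4, rested on 46730 heavy-chain counts (95% Wilson interval 79.9% to 80.7%), so counting error was small beside the spread between libraries. The means were 91.0% ± 4.82 and 90.8% ± 6.33 (SD, n = 5 each; exact permutation test, p = 0.944, adjusted p = 0.944 over 6 measures). The smallest p that this two-sided test can give with 5 against 5 libraries is 0.0079.

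IgM took most of the remainder in 9 of 10 libraries. Its share was 4.38%, 2.03%, 3.35%, 13.2% and 6.90% in sham libraries and 2.11%, 2.57%, 7.05%, 15.0% and 5.35% in pMCAO libraries. The 3 libraries with the least Igha had the largest IgM shares together with the smallest summed counts. Group means were 5.98% ± 4.43 and 6.42% ± 5.22 (exact permutation p = 0.833, adjusted p = 0.944). IgD stayed between 0.0505% and 1.05%, with Ighm at 5.50 to 50.9 counts per Ighd count, and its group means of 0.541% and 0.517% differed by less than the spread (exact permutation p = 0.873, adjusted p = 0.944).

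The 4 IgG genes together made up 2.23%, 1.80%, 2.36%, 1.11% and 4.69% of heavy-chain counts in sham libraries and 2.69%, 0.890%, 1.75%, 3.77% and 2.30% in pMCAO libraries. The means of 2.44% ± 1.35 and 2.28% ± 1.07 differed by less than the spread (exact permutation p = 0.849, adjusted p = 0.944). IgG thus stayed a small part of heavy-chain counts in each library.

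The make-up of IgG varied more. Ighg2b was the leading IgG gene in 9 of 10 libraries, with 73.0% to 94.8% of IgG counts in sham libraries. It held 88.1%, 47.7%, 99.0%, 86.4% and 24.2% in pMCAO replicates 1 to 5. Ighg2c made up 39.5% of IgG counts in pMCAO replicate 2 (95% Wilson interval 38.8% to 40.2%) and 29.6% in pMCAO replicate 5 (28.8% to 30.4%), where it led, against 0.185% to 3.42% in the 5 sham libraries. The other 3 pMCAO libraries, with 1.15%, 0.740% and 0%, lay within or below the sham range. Ighg3 ranged from 0.247% to 27.9% and Ighg1 from 0% to 18.3% of IgG counts. These subclass shares were not tested between groups.

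**Figure D3:**
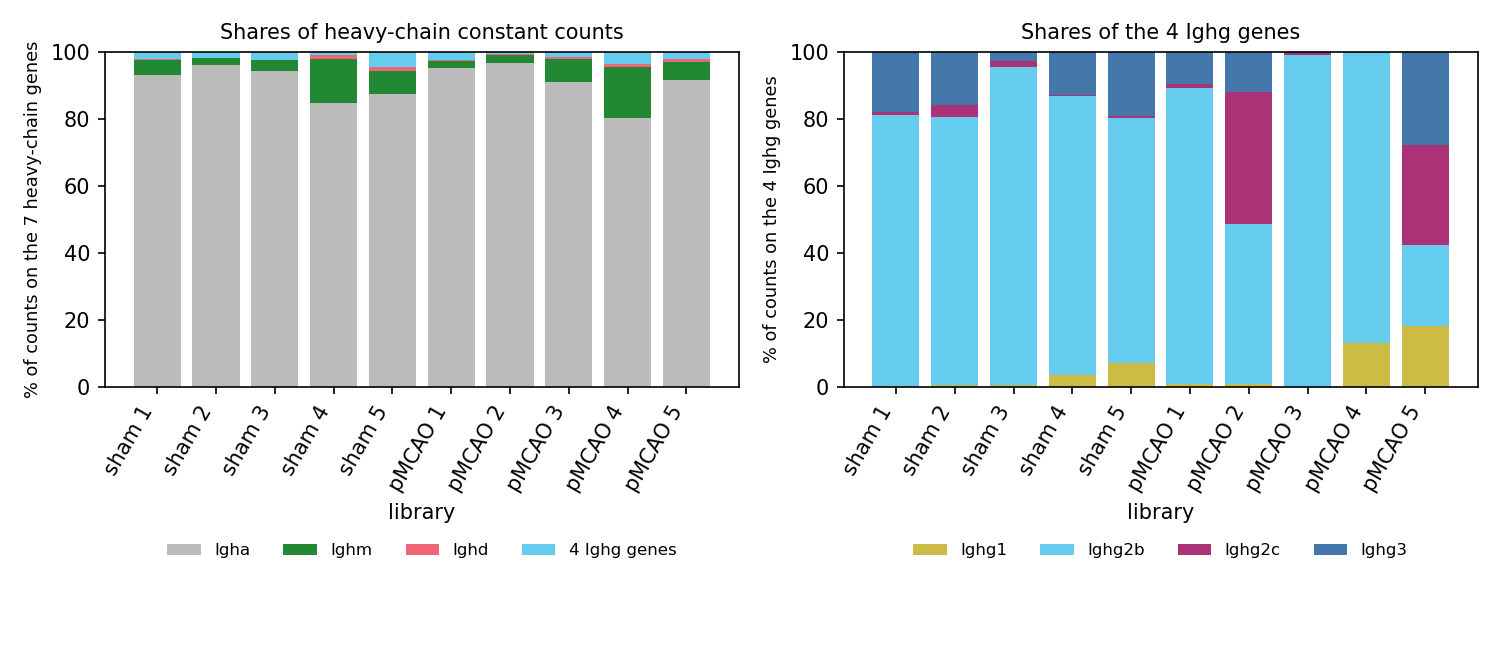
Stacked bars per library of the shares of counts, in percent, for IgA, IgM, IgD and IgG among the 7 heavy-chain genes (left) and for the 4 Ighg genes among IgG counts (right). IgA holds 80.3% to 96.5% in every library, and Ighg2c stands out in pMCAO replicates 2 and 5.

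Light chains were mostly kappa. Igkc made up 88.8%, 92.5%, 93.2%, 97.7% and 88.5% of Igkc and Iglc1 counts in sham libraries and 83.1%, 94.0%, 99.4%, 79.9% and 91.1% in pMCAO libraries. The 2 extremes were both pMCAO libraries with little immunoglobulin, replicates 3 and 4. Means of 92.1% ± 3.74 and 89.5% ± 7.96 differed by less than the spread (exact permutation p = 0.516, adjusted p = 0.944). The difference of -2.62 percentage points was -5.10 without pMCAO replicate 3 and -0.225 without pMCAO replicate 4. The other lambda constants in the table were Iglc2, at 9.74 to 345 CPM in sham and 2.57 to 1884 CPM in pMCAO libraries (log2 fold change 1.42 ± 1.13, FDR = 0.922), and Iglc3, at 17.5 to 605 and 14 to 1836 CPM (0.54 ± 1.07, FDR = 0.966). Both peaked in pMCAO replicate 2, and with them counted the kappa share was 84.2% to 96.3% in sham and 68.0% to 98.9% in pMCAO libraries.

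The ratio of Jchain to Igha varied little between libraries. For 100 Igha counts there were 28.4, 34.2, 32.5, 28.4 and 25.4 Jchain counts in sham libraries and 37.9, 32.1, 24.7, 41.0 and 36.3 in pMCAO libraries. Across a 35.4-fold range of Igha the ratio thus moved only between 24.7 and 41.0. On the log2 scale the means were -1.76 ± 0.172 and -1.56 ± 0.286, a difference of 0.194, and 4 of 5 pMCAO libraries lay above the sham median (exact permutation p = 0.23, adjusted p = 0.944).

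**Figure D4:**
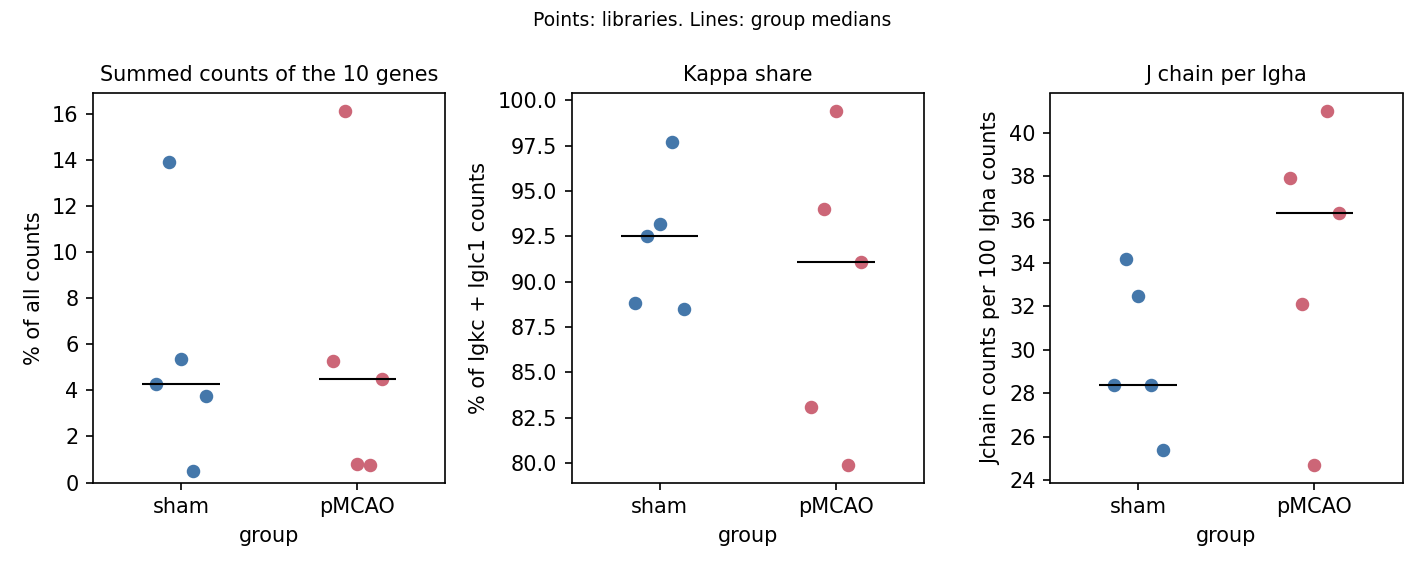
Summed counts of the 10 genes as a percent of all counts (left), kappa share of Igkc and Iglc1 counts in percent (middle) and Jchain counts per 100 Igha counts (right), with 1 point per library and lines for group medians. The groups overlap in all 3 panels, and the middle and right axes do not start at 0.

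Igha and its partners varied together across libraries. With log2 CPM over all 10 libraries, Igha correlated with Igkc (Pearson r = 0.994, Spearman rho = 0.988, permutation p = 1e-05 for r and 3e-05 for rho, the former being the smallest that 100000 resamples can give) and with Jchain (r = 0.991, rho = 0.964, permutation p = 5e-05 and 3e-05). Mzb1, a chaperone of antibody assembly in plasma cells, followed Igha with r = 0.975 and rho = 0.879 (permutation p = 6e-05 and 0.00169). Over the 6 relations the adjusted p for r was at most 0.00012 for these 3 genes. Without the 2 libraries farthest from the median of Igha, sham replicate 4 and pMCAO replicate 4, r was 0.999 for Igkc, 0.992 for Jchain and 0.947 for Mzb1. Since 3 libraries stood apart with Igha under 10000 CPM, r was also taken over the other 7, where it was 0.999, 0.985 and 0.901 (adjusted permutation p = 0.00132, 0.00345 and 0.0432). On ranks these 7 gave rho = 1.00, 0.929 and 0.643 (permutation p = 0.00041, 0.00671 and 0.138), so the relation of Mzb1 did not pass there. The values of 1 library share its scaling, and each r is over both groups.

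Ighm and the B cell receptor gene Cd79a followed Igha less closely. For Ighm, r was 0.841 and rho 0.673 (permutation p = 0.0028 and 0.0398, adjusted p = 0.0042 and 0.0516), and r was 0.846 without the 2 farthest libraries. For Cd79a, r was 0.714 and rho 0.661 (permutation p = 0.0218 and 0.043, adjusted p = 0.0261 and 0.0516), and r was 0.746 without them. Over the 7 libraries with more Igha neither relation passed, with r = 0.707 and rho = 0.321 for Ighm and r = 0.354 and rho = 0.107 for Cd79a (adjusted permutation p for r = 0.103 and 0.418). For the macrophage receptor Csf1r, r was -0.333 and rho -0.188 (permutation p = 0.351 and 0.604, adjusted p = 0.351 and 0.604), and r was -0.093 without the 2 farthest libraries. Over the 7 libraries its sign turned, with r = 0.378 and rho = 0.714 (permutation p = 0.418 and 0.0883).

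**Figure D5:**
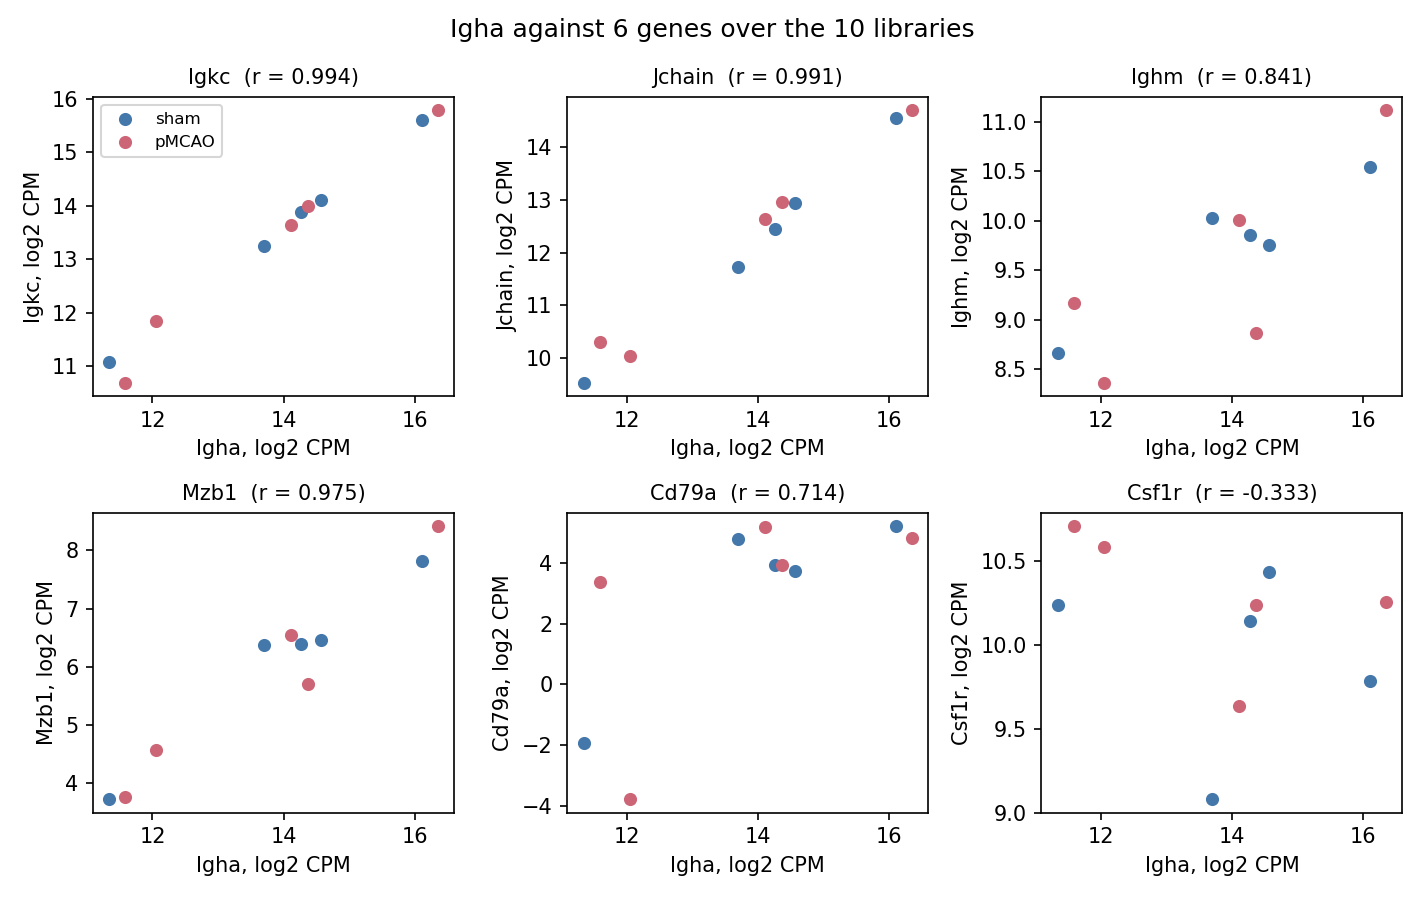
Log2 CPM of Igha (horizontal axes) against 6 genes (vertical axes), 1 point per library, sham in blue and pMCAO in red, with Pearson r over the 10 libraries. Igkc and Jchain lie close to a line with r = 0.994 and 0.991, whereas Csf1r gives r = -0.333.

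Outside the immunoglobulin genes, the 5 genes most like Igha over the 10 libraries were Txndc5 (r = 0.992), a disulfide isomerase of the endoplasmic reticulum, Pou2af1 (r = 0.988), a coactivator of antibody gene transcription, Gm13736 (r = 0.978), Tram2 (r = 0.977), a protein of the translocon, and the gene with the symbol a, agouti (r = 0.977). Txndc5 spanned 45.6 to 613 CPM and Pou2af1 16.1 to 395 CPM, whereas the agouti gene reached only 4.88 CPM. For Ighm they were Gm14127 (r = 0.969), Ly6c2 (r = 0.957), Otud7b (r = 0.949), Alpl (r = 0.941) and Pxmp2 (r = 0.941), none of which is in the lists of B cell or plasma cell genes. These are the highest values among all genes tested and are given as a description.

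Genes of the cells that make antibody gave no call, and their summed levels spread less than those of the constant genes. Single genes of the plasma cell list were unlike in this. Prdm1 and Xbp1 ranged 2.42-fold and 5.96-fold over all libraries. Pou2af1, Mzb1 and Eaf2 ranged 24.5-fold, 28.7-fold and 29.3-fold, beside 35.4-fold for Igha. Sdc1 and Fkbp11 ranged further than Igha, 40.3-fold and 191-fold, with Fkbp11 falling to 0.177 CPM in its lowest library. Of 17 plasma cell genes 0 were called (edgeR, 0 at an unadjusted p under 0.05), with 12 log2 fold changes above 0, 5 below and a median of 0.09. Their summed level was 529 to 3053 CPM in sham and 549 to 3759 CPM in pMCAO libraries. The highest in mean CPM were Xbp1, the factor that widens the secretory pathway, at 161 to 665 and 139 to 830 CPM (log2 fold change 0.04 ± 0.50), followed by Txndc5 (0.09 ± 0.69), Pou2af1 (0.21 ± 0.81) and Prdm1, the plasma cell regulator Blimp-1 (0.04 ± 0.29). The smallest p in each direction belonged to Tnfrsf13b, the receptor TACI (0.34 ± 0.42, FDR = 0.945), and Eaf2 (-0.28 ± 0.74, FDR = 0.975). The 2 libraries with the most Igha also had the highest summed level of plasma cell genes and the 3 with the least Igha the lowest, and the part of these cells in the spread was not tested.

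Of 16 B cell genes 0 were called, with 2 log2 fold changes above 0, 14 below and a median of -0.34. They summed to 529 to 1132 CPM in sham and 405 to 1102 CPM in pMCAO libraries. The defining marker Cd79a ran from 0 to 40.6 CPM and Ms4a1 (CD20) from 0 to 136 CPM (-0.63 ± 0.92), whereas Bank1 was at 156 to 408 CPM (-0.04 ± 0.29) and Cd22 at 38.3 to 116 CPM (-0.09 ± 0.21). Cd79b, which with Cd79a carries the B cell receptor's signal, had the smallest p below 0 (-0.44 ± 0.30, FDR = 0.922) and Ebf1 the smallest above 0 (0.29 ± 0.87, FDR = 0.978).

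Signals and enzymes of class switching were low and without a call in 11 genes tested of 12 listed, with a median log2 fold change of -0.15, 3 above 0 and 8 below. Tgfb1, the cytokine that directs switching to IgA, was at 43.7 to 92.8 CPM (-0.06 ± 0.20), and the mismatch repair gene Msh6, which had the smallest p above 0, was at 0.07 ± 0.22 (FDR = 0.978). Il10 was at 6.49 to 103 CPM in sham and 12.0 to 47.9 CPM in pMCAO libraries (-1.19 ± 0.66, FDR = 0.922).

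Receptors that carry or bind antibody were tested for 8 genes of 9, with 0 called and a median log2 fold change of -0.17. Pigr, the epithelial receptor that transports polymeric IgA, was at 122 to 230 CPM in sham and 18.2 to 162 CPM in pMCAO libraries (-1.08 ± 0.52, FDR = 0.922). Epcam, an epithelial marker, was at 75.9 to 140 and 14.8 to 117 CPM beside it (-0.71 ± 0.41, FDR = 0.922), and its part in the value of Pigr was not tested. The Fc receptors of macrophages Fcer1g (the signalling chain), Fcgr2b (inhibitory), Fcgr3 and Fcgr4 had log2 fold changes of -0.19 ± 0.36, -0.14 ± 0.24, -0.08 ± 0.27 and -0.36 ± 0.33. Fcgrt, the neonatal receptor that recycles IgG, had the smallest p above 0 (0.21 ± 0.34, FDR = 0.954).

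Markers of the sorted cells and of other cells were also without a call. Among 12 macrophage genes, 8 log2 fold changes were above 0 and 4 below, with a median of 0.10 and with Lyz2 at -0.32 ± 0.26, C1qb at -0.01 ± 0.30, Csf1r at 0.32 ± 0.27, C1qc at -0.06 ± 0.33 and Mertk at 0.54 ± 0.34. The 8 T cell genes were all below 0 with a median of -0.75 and summed to 168 to 562 CPM in sham and 183 to 316 CPM in pMCAO libraries, and none was called. Those highest in mean CPM were Cd4 (-0.14 ± 0.20), Cd8a (-0.59 ± 0.72), Cd3g (-0.93 ± 0.71) and Lck (-0.99 ± 0.70), and Cd2 had the smallest p (-1.0 ± 0.55, FDR = 0.922). Cd4 ranged only 1.66-fold and set the lowest sums, with 150 of 168 CPM in sham replicate 4 and 156 of 183 CPM in pMCAO replicate 3. Cd3g ranged 54.2-fold, from 1.53 to 83.2 CPM. The 8 epithelial genes had a median of -0.29 and summed to 347 to 816 and 108 to 914 CPM, with Fabp2 at 0.04 ± 0.60, Lgals4 at -0.11 ± 0.55 and Krt8 at -0.67 ± 0.58. Reads of immunoglobulin genes were thus present beside markers of plasma cells, B cells, T cells, epithelium and macrophages, and the cells that gave them were not identified by these counts.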

How the data were processed

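RNA of sorted cells (RNeasy micro plus, 2.0 ng per library) was sequenced as 100-base pairs after Trio library construction with cleavage of ribosomal RNA. The deposited table holds whole-number counts per gene, not normalized, and the authors' CPM values, which are counts scaled to the library's total in that table. Fold changes and p-values of the authors' own comparison stand in it too and were left aside. The submitters' processing notes name STAR, featureCounts and limma with GRCm38 and mm10, and versions and strandedness are not given in the sources used here. All 17279 listed genes had at least 10 counts in at least 2 libraries.

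Genes were filtered with filterByExpr (16949 kept), given TMM factors and fitted in edgeR 4.0.16 (R 4.3.3), whose quasi-likelihood test was read at a Benjamini-Hochberg FDR of at most 0.05 over all genes, with no covariate. SE is the log2 fold change divided by the square root of F. Shares were compared by two-sided exact permutation of group means over all assignments of 5 against 5 libraries, adjusted over 6 measures. Correlations used log2 CPM with a prior count of 2 and 100000 resamples (numpy 2.4.6). Alternatives were DESeq2 1.42.0, limma-voom 3.58.1, other scalings and filters, the replicate number as a block and libraries left out. After the data were seen, left-out libraries for the summed level and the correlation over 7 libraries were added. The fits were also run on simulated counts in which all planted changes were large, so small changes were not covered. Coordinates, exon lengths and sequences came from GENCODE M21 (17193 of 17279 genes matched). No 2 libraries were alike within sampling noise (chi-square per gene of at least 41.1).

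The members and gene lists were chosen with earlier results of these data known. Named genes are the 10 members, the listed further constant genes, the 4 most abundant genes of each other list with its smallest p in each direction, and the 5 genes most correlated with Igha and with Ighm. Cd79a in its list, Sdc1, Fkbp11 and the variable genes were added to these once their values had been seen. Of the genes named by the rule, 1 is not reported here. Nothing in the labels says whether libraries are from separate animals beyond calling them biological replicates, so p-values measure the spread between these libraries. Intervals and floors of 3 counts cover counting error only.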

Additional observations from a re-analysis of the deposited data

Results flagged for a closer look

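Of 34 groups of 5 libraries examined, 2 held a library far from the others, where chance gives about 1.7. Sham replicate 4 was the lowest sham library for Ighg2b (23.8 CPM), with a gap to the next library of 0.717 of the group's range of log2 CPM. The same library was the lowest sham library for Iglc1 (42.9 CPM), with a gap of 0.732 of the range. Both gaps exceed the limit of 0.71. Sham replicate 4 was also the sham library with the least Igha, Igkc and Jchain.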

How the results depend on the processing

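No member and none of the other listed genes was called under any of the 20 alternatives, which included the replicate block, and the count of members called was 0 throughout. The 6 shares and ratios kept adjusted p-values above the threshold under every alternative, while their differences changed sign in several for IgA, IgM, IgD and IgG. The kappa difference stayed below 0 and the J chain difference above 0 throughout. Without pMCAO replicate 3 the J chain ratio had an unadjusted exact permutation p = 0.0397 (adjusted p = 0.238). With 1 library left out, the difference in the IgA share ran from -1.86 to 2.36 percentage points, in the IgM share from -1.71 to 2.26, in the kappa share from -5.10 to -0.225 and in the J chain ratio from 0.125 to 0.308. Under the replicate block (sign flips of 5 pairs, smallest possible p 0.0625) the differences were -0.263 for IgA, 0.443 for IgM and 0.194 for J chain, with exact p = 0.938, 0.688 and 0.312. The labels give no batch, and the numbers were not taken to pair libraries. Correlations of same-numbered deviations ran from -0.005 to 0.372 (mean 0.197). No value for libraries of unlike number was set beside them, so they cannot decide whether same-numbered libraries belong together. With the block, the unadjusted edgeR p moved from 0.568 to 0.0365 for Ighg3 and from 0.676 to 0.0828 for Ighd. The block gave 1303 genes at an unadjusted p under 0.05, against 799, and 0 called in both. Over all genes DESeq2 called 3, where edgeR called 0.

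The log2 fold change of Ighg2c stayed above 0, from 1.06 to 4.19, and those of Ighg2b and Ighg3 below 0, from -1.68 to -0.64 and from -1.59 (replicate block) to -0.14. For Igha it ran from -1.19 without pMCAO replicate 2 to 0.79 without sham replicate 2, and the sign of Jchain, Igkc, Ighm, Ighd, Iglc1 and Ighg1 also turned in at least 1 alternative, never with a call. The summed level differed by -2.72 to 2.02 percentage points with 1 library left out. The relation of Igha to Cd79a missed the threshold without both pooled libraries (r = 0.707, adjusted p = 0.063) and without sham replicate 4 (r = 0.605, the lowest of 0.605 to 0.829 with 1 library left out), and over the 7 libraries with Igha above 10000 CPM (r = 0.354). That of Ighm missed it over those 7 libraries (r = 0.707), and the value for Csf1r turned from -0.333 to 0.378 there without passing. All these fits had fewer libraries, and the 7 libraries were chosen on Igha itself and so spanned a narrower range of it. The cause was not tested.

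Depth limits the rarest genes: 3 counts are 0.467 CPM in pMCAO replicate 1, the shallowest library. That library still held 41, 47 and 397 counts of Ighg1, Ighg2c and Ighg3. In pMCAO replicates 3 and 4, Ighg2c and Ighg3 fell to 0 to 6 counts. Ighg1 had 0 counts in pMCAO replicate 3 and 233 in pMCAO replicate 4. The part of depth in these low counts was not tested.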

Other observations

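The variable genes gave a second reading of the same transcripts. The table listed 80 Ighv, 71 Igkv and 3 Iglv genes, which together took 0.0759% to 2.63% of all counts. The share of kappa among light-chain variable counts was 85.9%, 93.4%, 92.7%, 94.0% and 88.1% in sham replicates 1 to 5 and 85.6%, 89.9%, 98.9%, 71.7% and 88.8% in pMCAO replicates 1 to 5. As with the constant genes, pMCAO replicate 3 was the highest and pMCAO replicate 4 the lowest.

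The libraries with the least Igha had counts for fewer heavy-chain variable genes. In sham replicate 4 and pMCAO replicate 3 the 5 leading Ighv genes made up 74.1% and 76.9% of Ighv counts, against 34.2% to 49.8% in the other 8 libraries, pMCAO replicate 4 (49.0%) among them. Ighv3-6 alone took 38.2% in sham replicate 4, and Ighv5-12 and Ighv10-3 led pMCAO replicates 3 and 4 with 20.0% and 27.1%. Between 42 and 56 Ighv genes had a count in these 3 libraries, which held 4542 to 5994 Ighv counts each, and between 71 and 80 in the other 7. These values were read after the data were seen and were not tested.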
